A study of Mus musculus with 6 samples.

Results

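Fibronectin and 7 genes linked to the extracellular matrix were followed in mouse alveolar macrophages, which clear particles and surfactant from the air spaces of the lung, with Rack1 deleted in myeloid cells or not. The genes were chosen by symbol: Fn1, Vcan, Thbs1, Tgm2, Fam20c, Adam8, Pdgfa and Pdgfb, 8 of the 26428 genes of the deposited table, each with 1 row. RNA was sequenced from 3 knockout libraries, with the genotype label Rack1{delta}Mye, and 3 control libraries, with the genotype label Rack1F/-. The control label does not say that both Rack1 alleles were intact. RACK1 is a ribosome-bound adaptor that also anchors signalling kinases. The driver of the deletion, the exons removed, the age and sex of the mice and any pooling of animals are not stated in the sources used here.

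The extracellular matrix is the network of secreted proteins and sugar chains around cells. Fibronectin is secreted by macrophages and fibroblasts, is assembled into fibrils through integrins and is an early component of repair tissue in the lung. Versican is a large proteoglycan that binds hyaluronan, and thrombospondin-1 is a matricellular protein that binds CD36 and CD47 and can activate latent TGF-beta. Transglutaminase 2 crosslinks matrix proteins and also serves as a coreceptor for fibronectin beside integrins. FAM20C is the Golgi kinase that phosphorylates many secreted proteins, osteopontin among them, and ADAM8 is a membrane protease of myeloid cells that sheds surface proteins. The PDGF-A and PDGF-B chains form the platelet-derived growth factors, mitogens of fibroblasts and smooth muscle cells, which macrophages can release.

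The promoter windows of Fam20c, Adam8 and Vcan are shown because these genes had, of the 4 genes with a window in RefSeq (GRCm38.p6), the largest rise, a level that was higher in knockout without overlap, and a level near 0. Each window runs from 250 bases before to 50 bases after a RefSeq start site and is written 5′ to 3′ on the strand of the gene. Capitals mark the GC box, GGGCGG, and the CCAAT box, CCAAT, on either strand. The Fam20c window lies at chr5:138754831-138755130 on the plus strand, the Adam8 window at chr7:139992513-139992812 on the minus strand and the Vcan window at chr13:89742463-89742762 on the minus strand. The Fam20c window begins 317 bases after the start of the gene in the deposited table and so lies inside the gene as deposited, whereas the Adam8 and Vcan windows begin before the deposited starts.
Fam20c: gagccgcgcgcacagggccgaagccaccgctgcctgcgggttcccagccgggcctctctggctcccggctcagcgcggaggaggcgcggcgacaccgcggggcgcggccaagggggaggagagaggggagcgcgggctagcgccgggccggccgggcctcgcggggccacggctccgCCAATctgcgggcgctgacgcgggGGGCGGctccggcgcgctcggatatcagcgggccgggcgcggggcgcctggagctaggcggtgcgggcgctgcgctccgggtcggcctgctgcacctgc
Adam8: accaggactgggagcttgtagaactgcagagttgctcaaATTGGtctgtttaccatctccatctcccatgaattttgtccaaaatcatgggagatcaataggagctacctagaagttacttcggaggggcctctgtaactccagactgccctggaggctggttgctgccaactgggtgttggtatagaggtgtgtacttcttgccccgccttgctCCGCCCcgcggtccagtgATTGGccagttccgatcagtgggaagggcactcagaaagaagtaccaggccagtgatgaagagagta
Vcan: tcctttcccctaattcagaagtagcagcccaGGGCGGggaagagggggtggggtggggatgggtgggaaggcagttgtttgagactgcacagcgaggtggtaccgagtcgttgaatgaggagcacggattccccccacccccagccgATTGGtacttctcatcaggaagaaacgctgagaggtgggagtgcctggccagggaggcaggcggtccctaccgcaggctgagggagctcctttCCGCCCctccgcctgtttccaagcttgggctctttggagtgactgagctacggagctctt
The Fam20c window was 80.7% G and C, higher than 99.2% of the 32851 RefSeq promoter windows of the same length, whose median was 52.7%. The Adam8 window was 52.3% G and C and the Vcan window 61.0%. The Fam20c window held 1 GC box and 1 CCAAT box, the Adam8 window 1 GC box and 2 CCAAT boxes, and the Vcan window 2 GC boxes and 1 CCAAT box. Of all windows, 35.7% held a GC box and 37.4% a CCAAT box. The AP-1 site TGACTCA, the cAMP response element TGACGTCA, the TATA box TATAAA, the PU.1-type site GAGGAAGT and the E-box CACGTG, searched on both strands, were not found in these 3 windows or in the 2 windows of Pdgfa; their shares of all windows were 5.2%, 1.79%, 13.6%, 3.2% and 7.15%. Matches of letters describe the windows and were not tested as sites.

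All adjusted p-values below, unless another tool is named, come from edgeR's quasi-likelihood test with Benjamini-Hochberg adjustment over all genes tested. Libraries held 51894849 to 56082536 units of estimated count in knockout and 54871157 to 66163430 units in control, and about 4 units made up a read pair. Rack1 averaged 37.0 ± 2.45 CPM in knockout and 80.6 ± 3.14 CPM in control libraries (SD, n = 3 each), a log2 fold change of -1.12 (edgeR adjusted p = 0.000207). All 14 alveolar macrophage markers of a fixed list, Siglecf, Marco and Chil3 among them, were detected, and their summed level was 91822 to 163043 CPM in knockout and 79506 to 155725 CPM in control libraries. Chil3 alone made up 83.8% to 86.9% of that sum in knockout and 89.3% to 91.7% in control libraries. Of the 14, 2 were called higher (Marco 4.31-fold and Car4 5.75-fold) and 4 lower, Cidec by the most at 2.87-fold. In knockout replicates 1 and 2 the Y-linked Eif2s3y reached 16.0 and 2.68 CPM and the Y-linked Ddx3y 8.45 and 3.16 CPM, against 0.282 to 0.681 CPM for both genes elsewhere; the part of sex in the results was not tested. Of 14797 genes tested, 878 were higher and 889 lower in knockout, so that 49.7% of the calls were higher. With scaling to library totals, which moved the median log2 fold change by -0.32, 23.7% of the calls were higher, and with limma on log2(FPKM + 1) as deposited 18.1%. Fn1, Thbs1, Tgm2 and Fam20c kept their direction under both; Adam8 and Pdgfa kept theirs with library totals and were below the filter of this limma test.

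Of the 8 genes, 3 rose in knockout (Fam20c, Thbs1 and Tgm2), 1 fell (Fn1) and 4 did not pass the test (Adam8, Pdgfa, Pdgfb and Vcan). Over all genes tested, 5.93% were called higher and 6.01% lower, together 11.9%, by the same rule of an edgeR adjusted p under 0.05. All 8 passed the filter on low counts, which was applied to units, about 4 to a read pair. Vcan passed it with at most 12 units in any library. The groups did not overlap in CPM for 5 of the 8, with Fam20c, Thbs1, Tgm2 and Adam8 higher and Fn1 lower in knockout; over all genes tested, 31.2% did not overlap, 15.3% with knockout higher and 15.9% with knockout lower. The genes were picked with earlier results of these data known, so these counts and the median that follows are descriptions. The median log2 fold change of the 8, with Vcan and Pdgfb near the floor included, was 1.49, against 0.01 over all genes tested. With library totals, which called 1.96% of all genes higher and 6.31% lower, the same 4 calls were made. With limma on unfiltered FPKM values, which called 0.155% higher and 0.496% lower, Fn1 alone was called.

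**Figure D1:**
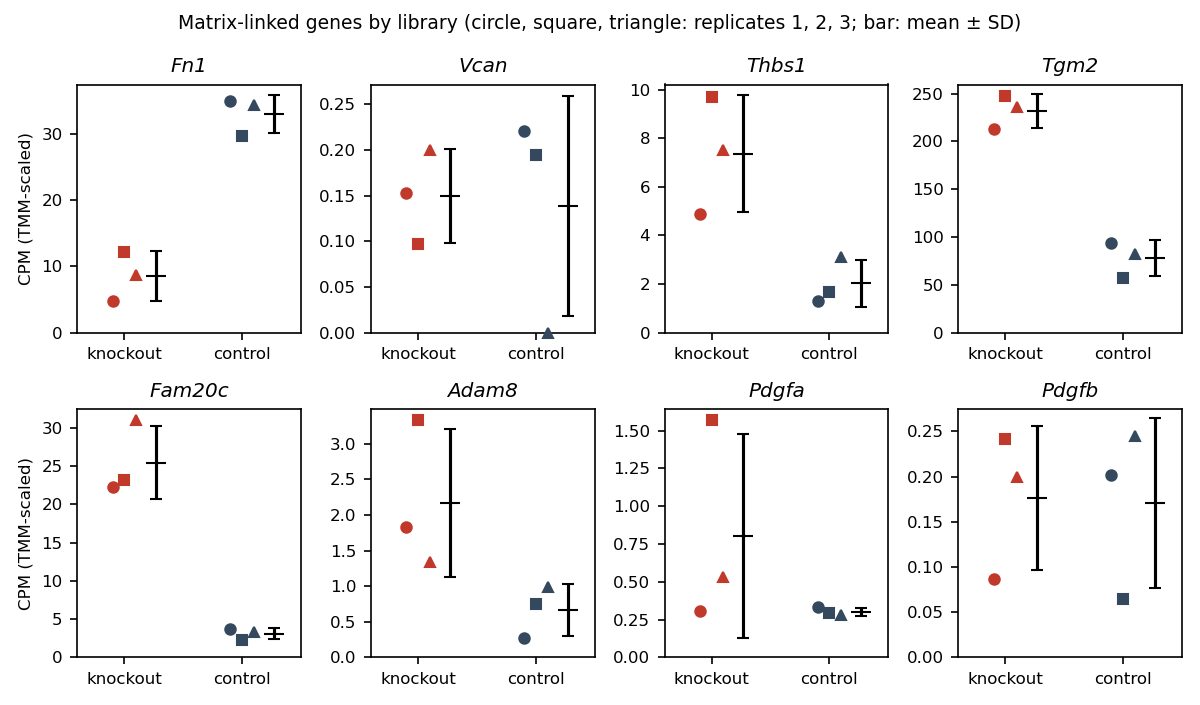
CPM (TMM-scaled) of each of the 8 genes in 3 knockout (left, red) and 3 control (right, dark) libraries, each panel with its own axis from 0; bars give the mean ± SD. Fn1 lies lower in knockout than in control without overlap, Fam20c, Thbs1, Tgm2 and Adam8 lie higher without overlap, and Pdgfa, Pdgfb and Vcan overlap.

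Fn1, which encodes fibronectin, fell 3.87-fold in knockout. The gene (ENSMUSG00000026193) spans bases 71585520 to 71653175 of chromosome 1, minus strand, in GRCm38 coordinates as deposited. Knockout replicates 1 to 3 had 4.71, 12.2 and 8.66 CPM, against 34.9, 29.6 and 34.3 CPM for control replicates 1 to 3. Every knockout library lay far below every control library, and knockout replicate 1 was the lowest of all. The means were 8.52 ± 3.74 CPM in knockout and 33.0 ± 2.89 CPM in control libraries (SD, n = 3 each). The log2 fold change was -1.95 ± 0.28 (SE; edgeR adjusted p = 0.00167), and 148 of the 889 genes called lower had a larger fall. It was -1.66 without knockout replicate 1 and -2.31 without knockout replicate 2 (edgeR adjusted p = 0.00178 and 0.00195), and Fn1 kept its call under all 17 alternatives. These values rest on 216 to 521 units in knockout and 1829 to 2943 units in control libraries. In such bulk samples, fewer cells that express a gene and less RNA per cell cannot be told apart.

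Markers of other lung cells were set beside Fn1, first those of fibroblasts and smooth muscle, which also make fibronectin. The 13 listed markers summed to 73.4 to 83.3 CPM in knockout and 56.3 to 90.9 CPM in control libraries, and 6 of them stayed under 1 CPM in every library. Most of that sum was Dcn, which encodes the matrix proteoglycan decorin, at 74.9 ± 4.42 CPM in knockout and 63.9 ± 14.6 CPM in control libraries (SD, n = 3 each). The collagen gene Col1a1 stood at 0.206 ± 0.0493 CPM in knockout and 0.810 ± 0.265 CPM in control libraries (SD, n = 3 each; edgeR adjusted p = 0.0717). Of 9 markers tested, 0 were higher and 2 lower in knockout, against 5.93% and 6.01% of all genes. At an unadjusted p under 0.05 the counts were 0 and 4, and DESeq2 called 0 higher and 2 lower. Among all 18195 genes tested by DESeq2, 1083 were called higher and 1169 lower. The share of all genes at an unadjusted p under 0.05 is not given, so those counts, here and below, are descriptions. The 2 markers called lower, the smooth muscle genes Tagln and Myh11, had no count in knockout and averaged 1.03 and 1.25 CPM in control libraries. The 17 lung epithelial and endothelial markers summed to 97.6 to 103 CPM in knockout and 113 to 151 CPM in control libraries, lower in knockout without overlap, with 2 of 11 tested called higher and 2 lower. The lower ones were Epcam, which encodes an epithelial adhesion protein, at 3.97 ± 1.15 CPM in knockout and 18.9 ± 3.39 CPM in control libraries, and Napsa, an aspartic protease gene, at 41.1 ± 3.76 CPM in knockout and 56.9 ± 5.21 CPM in control libraries (SD, n = 3 each; edgeR adjusted p = 0.000265 and 0.0350). Napsa lost its call without any 1 library other than knockout replicate 3. The higher ones were the surfactant protein genes Sftpc and Sftpa1 (edgeR adjusted p = 0.0386 and 0.0122). Sftpc stood at 11.0 ± 6.51 CPM in knockout and 3.59 ± 2.12 CPM in control libraries (SD, n = 3 each). Sftpa1 stood at 3.07 ± 1.96 CPM in knockout and 0.432 ± 0.272 CPM in control libraries (SD, n = 3 each). By DESeq2, 1 marker of this list was higher and 2 were lower. The part of any of these cells in the Fn1 difference was not tested.

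The genes with the log2 CPM profile most like that of Fn1 over the 6 libraries, among 5287 genes with a mean of at least 10 CPM, were Cct3, Spsb3 and Dgat2, with Pearson correlations of 0.994, 0.993 and 0.991. All 3 share with Fn1 the division between the groups and the low value of knockout replicate 1, and the correlations are descriptions. Cct3, which encodes a chaperonin subunit, stood at 57.7 ± 3.36 CPM in knockout and 73.1 ± 0.371 CPM in control libraries (SD, n = 3 each). Spsb3, a ubiquitin ligase adaptor gene, stood at 15.1 ± 1.33 CPM in knockout and 20.8 ± 0.515 CPM in control libraries. Dgat2, which encodes an enzyme of triglyceride synthesis, stood at 12.4 ± 2.22 CPM in knockout and 25.5 ± 0.641 CPM in control libraries. Their log2 fold changes of -0.34, -0.46 and -1.04 were smaller in size than that of Fn1 (edgeR adjusted p = 0.0732, 0.0494 and 0.00238). Cct3 was thus not called, and Spsb3 lost its call without any 1 of the 6 libraries.

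**Figure D2:**
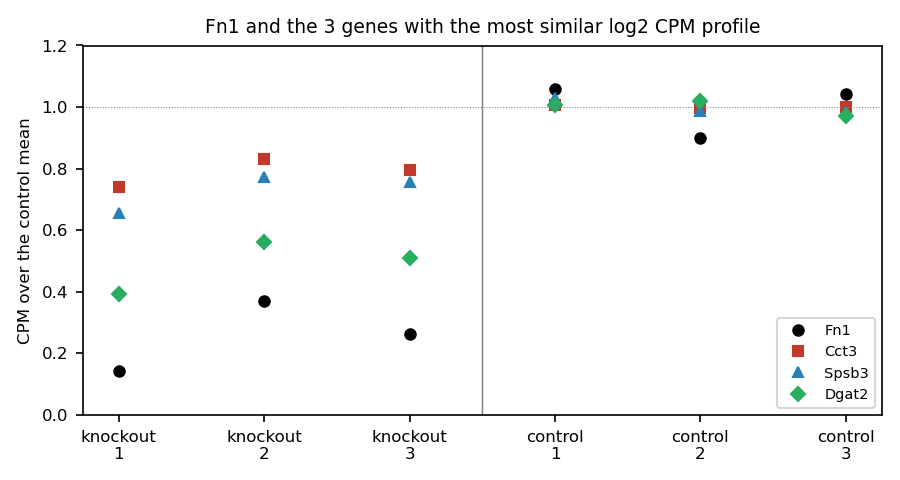
CPM divided by the mean of the 3 control libraries (vertical axis, linear from 0) for Fn1 and the 3 genes with the most similar log2 CPM profile in each of the 6 libraries. All 4 genes lie lower in the knockout libraries without overlap, with knockout replicate 1 lowest for each, and the drop of Fn1 is the deepest of the 4.

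Integrin chains and other receptors linked to fibronectin went both ways. The list is broad and holds genes better known for other ligands, the urokinase receptor gene among them. Of 11 tested genes, 1 was higher, 3 were lower and 7 did not pass, against 5.93% higher and 6.01% lower over all genes. The median log2 fold change of the list was -0.14. Sdc4, which encodes the heparan sulfate proteoglycan syndecan-4, rose to 6.61 ± 1.24 CPM in knockout, against 2.004 ± 0.0752 CPM in control libraries (SD, n = 3 each; edgeR adjusted p = 0.000976). Itgb5, an integrin beta chain gene, fell to 46.6 ± 3.37 CPM in knockout, against 81.3 ± 2.68 CPM in control libraries (SD, n = 3 each; edgeR adjusted p = 0.00171). Itga4, the alpha chain gene of a fibronectin-binding integrin of leukocytes, fell 3.01-fold and Plaur, the urokinase receptor gene, fell 1.46-fold (edgeR adjusted p = 0.0209 and 0.0374). Itga4 lost its call without knockout replicate 1 or 3 or control replicate 1 or 2, and Plaur without knockout replicate 2 or 3 or control replicate 1 or 2, with edgeR adjusted p up to 0.0927 and 0.121. The chains of the classical fibronectin receptor, Itga5 and Itgb1, had log2 fold changes of 0.25 and -0.05 (edgeR adjusted p = 0.421 and 0.850), and Itgav, an integrin alpha chain gene, 0.43 (edgeR adjusted p = 0.335).

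Of 24 other matrix genes tested, 3 were higher, 1 was lower and 20 did not pass, against 11.9% called over all genes, and the median log2 fold change was -0.10. Ecm1, which encodes a secreted matrix glycoprotein, rose to 108 ± 12.9 CPM in knockout, against 54.8 ± 1.17 CPM in control libraries (SD, n = 3 each; edgeR adjusted p = 0.000854). Ecm1 lost its call when scaled to library totals, at a log2 fold change of 0.66 (edgeR adjusted p = 0.0901). Tgfbi, which encodes a secreted protein that binds collagen and integrins, fell to 59.1 ± 7.89 CPM in knockout, against 97.2 ± 2.51 CPM in control libraries (SD, n = 3 each; edgeR adjusted p = 0.00521). The basement membrane collagen genes Col4a1 and Col4a2, neighbours that share a promoter region, rose to 1.96 ± 1.55 and 1.66 ± 0.860 CPM in knockout, against 0.395 ± 0.160 and 0.266 ± 0.0605 CPM in control libraries (SD, n = 3 each; edgeR adjusted p = 0.0333 and 0.00987). Col4a2 lost its call without knockout replicate 3, and Col4a1 without any single library other than knockout replicate 2, with edgeR adjusted p up to 0.0664 and 0.216, and Col4a1 also with library totals (edgeR adjusted p = 0.0550).

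Among matrix crosslinking genes and splicing factors, listed since fibronectin RNA is spliced in several ways, 0 of 14 tested were higher and 2 lower. Shares over all genes were 5.93% and 6.01%. At an unadjusted p under 0.05 the counts were 1 and 2, and by DESeq2 1 and 2. Plod3, a lysyl hydroxylase gene of collagen maturation, fell to 62.2 ± 1.93 CPM in knockout, against 102.7 ± 12.99 CPM in control libraries (SD, n = 3 each; edgeR adjusted p = 0.00507). Srsf3, a splicing factor gene, had a log2 fold change of -0.40 (edgeR adjusted p = 0.0479) and lost its call without any 1 of the 6 libraries.

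Vcan, which encodes versican, was near 0 in both groups. The gene (ENSMUSG00000021614) spans bases 89655312 to 89742509 of chromosome 13, minus strand. Vcan measured 7, 4 and 12 units for knockout replicates 1 to 3, against 12, 12 and 0 units for control replicates 1 to 3. No library exceeded 12 units, the floor of 3 read pairs, so no fold change is given (edgeR adjusted p = 0.959). The antisense gene Gm4117 stood at 0.401 CPM in knockout and 0.465 CPM in control libraries, above Vcan itself at 0.149 and 0.138 CPM. It overlaps Vcan from base 89739460 to base 89742509, and without strand the reads of that stretch alone cannot be told apart. Of 16 tested genes of hyaluronan and chondroitin sulfate metabolism, 3 were higher, 1 was lower and 12 did not pass. Shares over all genes were 5.93% higher and 6.01% lower, and the median log2 fold change of the list was 0.30. Chpf2, a chondroitin polymerising factor gene, rose 1.57-fold, Cd44, the hyaluronan receptor gene, had a log2 fold change of 0.47, and Chst12, a chondroitin sulfotransferase gene, of 0.62 (edgeR adjusted p = 0.0124, 0.0324 and 0.0438). Chsy1, a chondroitin synthase gene, had a log2 fold change of -0.96 (edgeR adjusted p = 0.0454). Scaled to library totals, Chpf2, Cd44 and Chst12 were not called (edgeR adjusted p = 0.498, 0.664 and 0.581). Chpf2 lost its call without control replicate 1, Cd44 without any 1 of the 6 libraries, Chst12 without any 1 other than control replicate 3, and Chsy1 without any 1 other than knockout replicate 1.

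Thbs1, which encodes thrombospondin-1, rose 3.64-fold in knockout. The gene (ENSMUSG00000040152) spans bases 118111876 to 118127133 of chromosome 2, plus strand. Knockout replicates 1 to 3 had 4.88, 9.70 and 7.51 CPM, against 1.28, 1.69 and 3.10 CPM for control replicates 1 to 3. All knockout libraries lay above all control libraries, with the closest pair being knockout replicate 1 and control replicate 3. The means were 7.36 ± 2.42 CPM in knockout and 2.02 ± 0.955 CPM in control libraries (SD, n = 3 each), a log2 fold change of 1.85 ± 0.35 (SE; edgeR adjusted p = 0.00790). These values rest on 224 to 452 units in knockout and 70 to 266 units in control libraries. The call held without any 1 of the 6 libraries, with edgeR adjusted p up to 0.0454, and was lost with limma on log2(FPKM + 0.1), which called 2.97% of all genes higher (limma adjusted p = 0.0552).

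Thrombospondin-1 is also stored in platelets and made by monocytes, and markers of both were read beside it. The 9 platelet markers in the table summed to 28.0 to 41.9 CPM in knockout and 16.2 to 29.6 CPM in control libraries, and 7 of them, the platelet integrin gene Itga2b and the glycoprotein genes Gp1ba and Gp5 among them, stayed under 1 CPM in every library. The 14 monocyte and interstitial macrophage markers summed to 194 to 370 CPM in knockout and 91.3 to 161 CPM in control libraries. Of these, 4 were called higher (Itgam, C1qa, C1qb and C1qc) and 0 lower, against 5.93% and 6.01% of all genes. At an unadjusted p under 0.05 the counts were 5 and 0, and by DESeq2 3 and 0. The 11 neutrophil markers summed to 112 to 120.0 CPM in knockout and 44.7 to 69.4 CPM in control libraries, with 1 called higher and 2 lower, and with Ly6g and Mpo under 1 CPM in every library. Retnlg made up most of that difference, at 52.9 ± 9.65 CPM in knockout and 4.05 ± 6.81 CPM in control libraries (SD, n = 3 each; edgeR adjusted p = 0.0680). The part of such cells in the rise of Thbs1 was not tested. Of 9 tested genes of the thrombospondin family and its receptors, 1 was higher, 1 was lower and 7 did not pass. Shares over all genes were 5.93% higher and 6.01% lower, and the median log2 fold change of the list was -0.10. Cd36, a receptor gene of thrombospondin-1, rose 1.48-fold (edgeR adjusted p = 0.0315). It lost its call when scaled to library totals, at a log2 fold change of 0.26 (edgeR adjusted p = 0.536), and without any 1 library other than control replicate 2. Cd47, which encodes the other receptor named above, had a log2 fold change of -0.10 (edgeR adjusted p = 0.730). Thbs4, another family member, had no count in knockout and 45, 20 and 25 units in control replicates 1, 2 and 3, at least 1.92-fold lower against the floor of 12 units per library; it lost its call without control replicate 1 (edgeR adjusted p = 0.0702).

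Tgm2, which encodes transglutaminase 2, rose 2.98-fold in knockout and had the highest FPKM of the 8 genes in both groups. The gene (ENSMUSG00000037820) spans bases 158116402 to 158146436 of chromosome 2, minus strand. Tgm2 measured 213, 248 and 236 CPM for knockout replicates 1 to 3, against 93.8, 57.4 and 82.7 CPM for control replicates 1 to 3. The groups were far apart, and the knockout libraries differed little among themselves. The means were 232 ± 17.8 CPM in knockout and 78.0 ± 18.7 CPM in control libraries (SD, n = 3 each), a log2 fold change of 1.57 ± 0.18 (SE; edgeR adjusted p = 0.000387). Rprd1b, a protein-coding gene on the opposite strand, overlaps part of Tgm2 and stood at 10.3 CPM in knockout and 8.39 CPM in control libraries; whether counting used the strand is not stated in the sources used here. Of other transglutaminase genes, Tgm1 stood at 0.857 ± 0.480 CPM in knockout and 1.58 ± 0.216 CPM in control libraries (SD, n = 3 each; edgeR adjusted p = 0.311). F13a1, the coagulation transglutaminase gene, stood at 2.60 ± 1.999 CPM in knockout and 2.45 ± 2.22 CPM in control libraries (SD, n = 3 each; edgeR adjusted p = 0.952).

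Fam20c, the secretory pathway kinase gene, rose 8.15-fold in knockout, the largest change of the 8. The gene (ENSMUSG00000025854) spans bases 138754514 to 138810077 of chromosome 5, plus strand, and its promoter window is the first of those printed above. Knockout replicates 1 to 3 had 22.3, 23.1 and 31.0 CPM, against 3.74, 2.27 and 3.36 CPM for control replicates 1 to 3. The lowest knockout library was several times the highest control library. The means were 25.5 ± 4.80 CPM in knockout and 3.12 ± 0.764 CPM in control libraries (SD, n = 3 each), a log2 fold change of 3.03 ± 0.22 (SE; edgeR adjusted p = 2.87e-05). Of the 878 genes called higher, 73 had a larger rise. Leaving out 1 library at a time gave log2 fold changes of 2.84 to 3.16 (edgeR adjusted p = 0.000192 to 0.000533). The relatives Fam20a and Fam20b stood at 0.281 ± 0.118 and 4.15 ± 1.11 CPM in knockout and at 0.0540 ± 0.0936 and 4.13 ± 0.793 CPM in control libraries (SD, n = 3 each; edgeR adjusted p = 0.311 and 0.993). Of 8 tested genes of a list of secretory pathway kinases, secreted phosphoproteins and the calcium channel gene Itpr1, 2 were higher and 0 lower. Shares over all genes were 5.93% and 6.01%. At an unadjusted p under 0.05 the counts were 3 and 1, and by DESeq2 2 and 1. The 2 called higher by edgeR were Spp1, which encodes the FAM20C substrate osteopontin, at a log2 fold change of 4.22, and the kinase gene Pomk at 0.73 (edgeR adjusted p = 8.53e-06 and 0.0242). Pomk was not called with library totals (edgeR adjusted p = 0.486) or without any 1 library other than control replicate 3.

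Adam8, the membrane protease gene, was higher in each knockout library than in each control library but did not pass the test. The gene (ENSMUSG00000025473) spans bases 139978932 to 139992562 of chromosome 7, minus strand. Adam8 measured 1.83, 3.33 and 1.35 CPM for knockout replicates 1 to 3, against 0.275, 0.746 and 0.991 CPM for control replicates 1 to 3. Knockout replicate 3 and control replicate 3 lay close to each other. The means were 2.17 ± 1.04 CPM in knockout and 0.671 ± 0.364 CPM in control libraries (SD, n = 3 each), a log2 fold change of 1.67 ± 0.52 (SE; edgeR adjusted p = 0.0658). It was called by DESeq2, by edgeR without a filter and by edgeR on counts divided by 4 (adjusted p = 0.0254, 0.0316 and 0.0404), which called 5.95%, 3.55% and 8.59% of all genes higher. Under the other 10 of 13 alternatives Adam8 was not called. Among those were library totals (edgeR adjusted p = 0.173) and each fit with 1 library left out (edgeR adjusted p = 0.0653 to 0.265). The Adam8 values rest on 81 to 138 units in knockout and 15 to 85 units in control libraries. Of 11 other tested genes of the ADAM family and its regulators 0 passed the edgeR test in either direction, against 11.9% of all genes. At an unadjusted p under 0.05, 1 was higher, and DESeq2 called 0. Adam9, Adam10 and Adam17, which encode widely expressed sheddases, had log2 fold changes of -0.19, -0.15 and -0.21 (edgeR adjusted p = 0.552, 0.637 and 0.465).

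Pdgfa, the PDGF-A chain gene, overlapped between the groups. The gene (ENSMUSG00000025856) spans bases 138976014 to 138997370 of chromosome 5, minus strand, 165936 bases beyond the end of Fam20c with 0 genes of the deposited table between them. Knockout replicates 1 to 3 had 0.305, 1.57 and 0.532 CPM, against 0.330, 0.292 and 0.280 CPM for control replicates 1 to 3. Knockout replicate 2 was high, and knockout replicate 1 lay among the control libraries. The log2 fold change was 1.40 ± 0.71 (SE; edgeR adjusted p = 0.252), and 0.47 without knockout replicate 2 (edgeR adjusted p = 0.806). These values rest on 14 to 65 units in knockout and 18 to 24 units in control libraries. The antisense gene 6330403L08Rik, which overlaps Pdgfa, stood at 0.0810 CPM in knockout and 0.0817 CPM in control libraries.

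Pdgfb, the PDGF-B chain gene, was near the floor in both groups. The gene (ENSMUSG00000000489) spans bases 79995874 to 80014977 of chromosome 15, minus strand. Pdgfb measured 4, 10 and 12 units for knockout replicates 1 to 3, against 11, 4 and 21 units for control replicates 1 to 3. Control replicate 3 alone exceeded 12 units, so no fold change is given (edgeR adjusted p = 0.987). Of 8 tested genes of other PDGF ligands, receptors and processing enzymes, 0 were higher and 1 was lower. Shares over all genes were 5.93% and 6.01%. At an unadjusted p under 0.05 the counts were 0 and 3, and by DESeq2 0 and 2. The gene called lower by edgeR, Nrp1, encodes a coreceptor of several growth factors. Nrp1 had a log2 fold change of -0.66 (edgeR adjusted p = 0.0234), and lost its call without any 1 library other than knockout replicate 3. Pdgfc, which encodes another PDGF ligand, stood at 3.75 ± 0.952 CPM in knockout and 5.60 ± 0.624 CPM in control libraries (SD, n = 3 each; edgeR adjusted p = 0.149). The receptor gene Pdgfra stood at 0.260 ± 0.0592 CPM in knockout and 0.398 ± 0.280 CPM in control libraries (SD, n = 3 each; edgeR adjusted p = 0.703). Pdgfd, a further ligand gene, and the receptor gene Pdgfrb had too few counts to be tested.

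**Figure D3:**
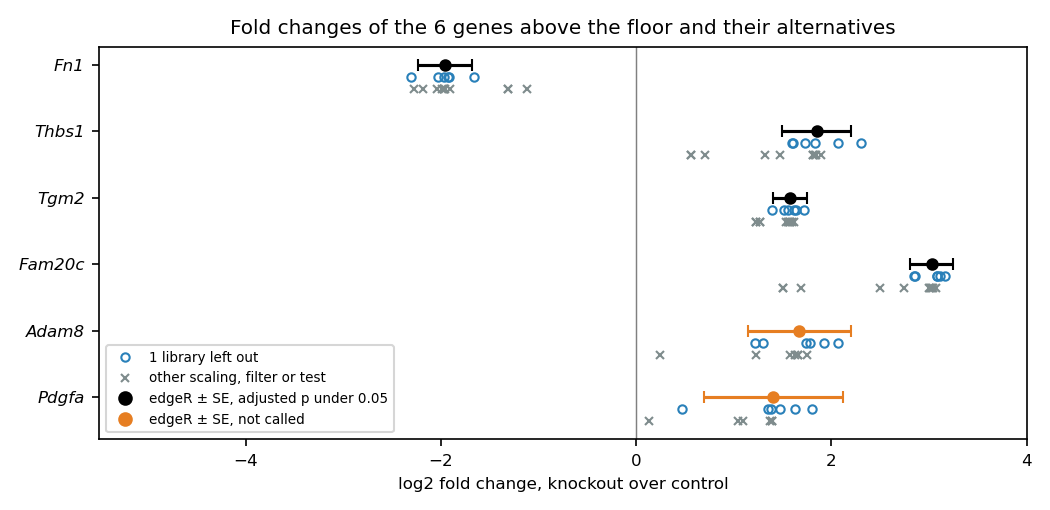
Log2 fold change, knockout over control, of the 6 genes for which one is given. Filled points with bars show the edgeR value ± SE (black where adjusted p is under 0.05), open circles the values with 1 library left out and crosses those with another scaling, filter or test. Each gene stays on its side of 0 under every alternative, and the cross nearest to 0 is a limma value for each gene.

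**Figure D4:**
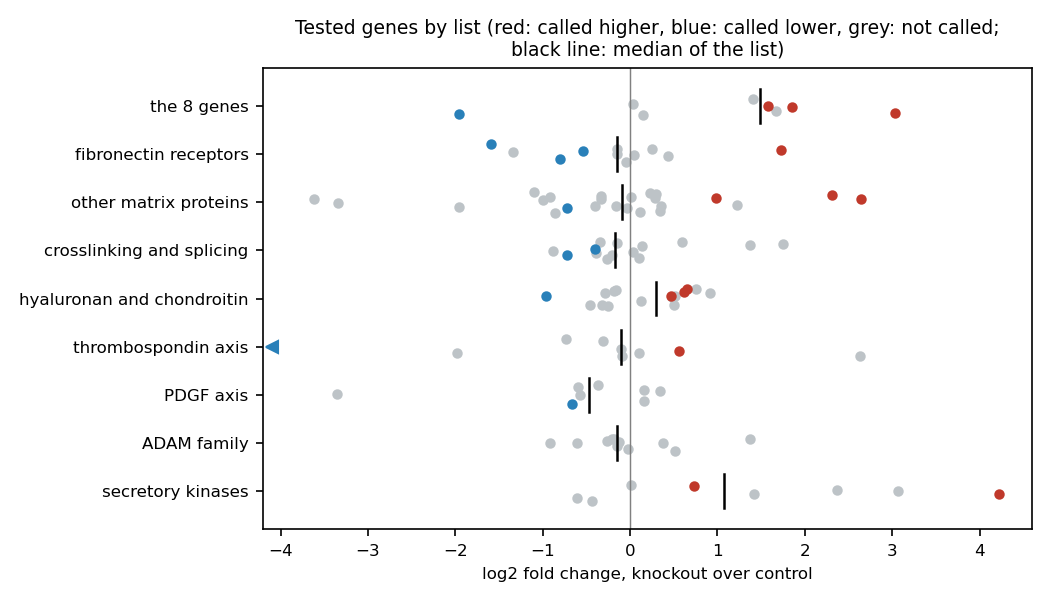
Log2 fold change, knockout over control, of each tested gene of the 8 and of the 8 pathway lists, 1 point per gene (red called higher, blue called lower, grey not called) with the median as a black line; the triangle at the left edge marks Thbs4, whose fitted value of -7.81 lies beyond the axis and rests on 0 counts in knockout. The medians of the lists lie between -0.47 for the PDGF axis and 1.07 for the secretory kinases, and most genes are grey. The list of secretory kinases also holds Spp1 and Itpr1, and 6 of its 8 tested genes were not called. Its median also counts the uncalled Fam20a and Dipk1b at fitted values of 2.37 and 3.07. These 2 genes were near 0 in control libraries, at means of 0.0540 and 0.128 CPM.

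Levels were compared between genes on the deposited FPKM scale, which is per transcript length. In knockout libraries the order was Tgm2 at 43.0 ± 8.75 FPKM, Fam20c at 3.36 ± 1.27, Thbs1 at 1.03 ± 0.359, Fn1 at 0.616 ± 0.267, Adam8 at 0.374 ± 0.137, Pdgfa at 0.208 ± 0.159, Pdgfb at 0.0351 ± 0.0183 and Vcan at 0.00869 ± 0.00407 FPKM (SD, n = 3 each). In control libraries it was Tgm2 at 17.9 ± 4.52 FPKM, Fn1 at 2.99 ± 0.534, Fam20c at 0.499 ± 0.134, Thbs1 at 0.369 ± 0.227, Adam8 at 0.159 ± 0.102, Pdgfa at 0.0968 ± 0.00812, Pdgfb at 0.0421 ± 0.0275 and Vcan at 0.00866 ± 0.00750 FPKM (SD, n = 3 each). Fn1 held the fourth place in knockout and the second in control libraries, and Fam20c the second in knockout and the third in control libraries. Ranges of neighbours overlapped from Thbs1 through Fn1 and Adam8 to Pdgfa in knockout, and from Fam20c through Thbs1 and Adam8 to Pdgfa in control libraries; the other neighbours did not overlap. Differences between genes were not tested.

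**Figure D5:**
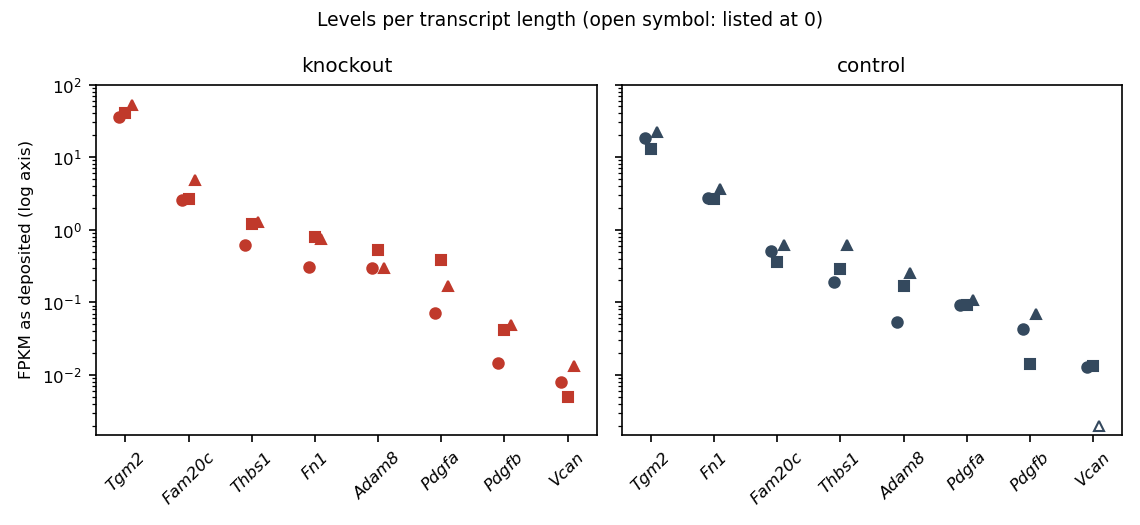
FPKM as deposited (log axis) of the 8 genes in the 3 knockout (left) and 3 control (right) libraries, 1 symbol per library, genes ordered by their mean in that group. Fn1 holds the fourth place in knockout and the second in control libraries, and Tgm2 leads both; the open symbol is Vcan in control replicate 3, listed at 0.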

How the data were processed

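RNA sequencing libraries of alveolar macrophages were read in 2 groups of 3, knockout and control, as the titles of the samples give them. Per the submitters' processing notes, the GRCm38 build and HISAT2, StringTie, cutadapt, FastQC, edgeR and DESeq2 were used; the role of each tool is not stated in the sources used here. For each of 26428 genes and each library the authors deposited FPKM values and estimated counts, per the file headers, the estimated counts as whole numbers. In genes with 1 transcript the most frequent count above 0 was 4 in every library, so 4 units were taken as about 1 read pair and 12 units, or 3 pairs, as the floor per library. Floors cover counting error only, and amplified reads are not independent molecules. No source used here says whether counting used the strand.

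The estimated counts were tested with edgeR's quasi-likelihood test on the whole table, with its default expression filter, TMM scaling and no covariate, and p-values were adjusted over all 14797 tested genes by the Benjamini-Hochberg method at 0.05. Counts-per-million (CPM) used the TMM-scaled library sizes. No label says which libraries came from separate animals, so p-values measure only the spread between these samples. Standard errors are the size of the log2 fold change divided by the root of F. FPKM values as the authors deposited them served to compare levels between genes and for limma on log2(FPKM + 1). The test was checked on simulated counts. Alternatives were median-of-ratios size factors, library totals, no filter, a mean of at least 10 CPM, DESeq2, limma with other pseudocounts, filters and scalings, counts divided by 4, a replicate block, and each library left out in turn. Genes named are the 8, family members fixed by name, at most 4 called genes per list by smallest p, and the 3 genes with the log2 CPM profile most like that of Fn1. The 8 genes and the lists were chosen with earlier results of these data known. Tests ran in R 4.3.3 with DESeq2 1.42.0, limma 3.58.1 and edgeR 4.0.16, and tables and plots in Python 3.11.15 with numpy 2.4.6, matplotlib 3.10.9 and pandas 2.3.3.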

Additional observations from a re-analysis of the deposited data

How the results depend on the processing

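Fn1 kept its direction and its call under all 17 alternatives, with log2 fold changes of -2.31 to -1.11. Fam20c and Tgm2 kept theirs under 16 of 17, and Thbs1 under 14 of 16. The Fn1 value of -1.11 came from limma on log2 of scaled FPKM plus 1, where the added 1 draws changes of low genes toward 0. With edgeR and 1 library left out, the Fn1 values were -2.31 to -1.66. With limma on unfiltered FPKM values 0 of the 8 genes were called higher (limma adjusted p = 0.0583, 0.0949 and 0.260 for Fam20c, Tgm2 and Thbs1) against 3 at an unadjusted p under 0.05, and 41 of all genes were called higher and 131 lower; the cause was not tested. Of all genes, 290 were called higher with library totals and 245 by limma at a pseudocount of 1 or 0.1, against 878. Leaving out 1 library at a time gave 455 to 691 genes called higher and 372 to 565 lower. Same-numbered knockout and control libraries did not deviate together (correlations of 0.0276, -0.0398 and 0.000329). These are correlations of deviations from the group mean, not of the library profiles themselves. The highest such value for any knockout and any control library was 0.0499, for knockout replicate 3 and control replicate 2. With 3 libraries per group, such correlations cannot decide whether libraries were paired. A replicate block gave 770 genes called higher and 699 lower. The values of Adam8, Pdgfa, Pdgfb and Vcan rest on 138 units or fewer in every library.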
